A study of Mus musculus with 6 samples.

Results

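Cells that are stressed or damaged release ATP and other nucleotides, and neighbouring cells read these molecules through surface receptors. The P2X receptors are ion channels that ATP opens, and the P2Y receptors are coupled to G proteins and differ in their ligand: P2Y2 binds ATP and UTP, P2Y6 binds UDP, P2Y12 and P2Y13 bind ADP, and P2Y14 binds UDP-glucose and other UDP-sugars. Enzymes on the cell surface end the signal by taking ATP down to adenosine, which acts on receptors of its own, and in monocytes and macrophages this system is known for its part in migration, uptake of dying cells and release of inflammatory cytokines.

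The genes described here are 7 of these receptors (P2ry2, P2ry6, P2ry12, P2ry13, P2ry14, P2rx4 and P2rx7), the ectoenzymes Entpd1 and Nt5e, and the adenosine receptor gene Adora2a. A gene was taken from the rows whose platform annotation gives exactly 1 gene symbol. This found 9 of the 10 genes among 22180 genes in all, each with 1 probe set, and Adora2a was not matched and is not analysed here. All 9 lay above the 25th percentile of their array on 6 of 6 arrays, so the filter on low values, which left 18458 genes to test, removed none of them.

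The samples are mouse cells sorted by flow cytometry as inflammatory monocytes, that is CD11b-positive, CD11c-negative and high for Ly6C, 3 samples taken from spleen and 3 from tumor. Both groups came from mice that had received Th9 cells, a kind of helper T cell, 10 days earlier, so the transfer is common to all 6 samples and its own effect cannot be read here. The sources used here give neither the mouse strain, nor the age of the mice, nor the type of tumor. Total RNA of each sample was measured on a Mouse Gene 2.0 ST array, which gives 1 intensity per probe set. Values below are levels, log2(intensity + 1), or differences, tumor minus spleen on that scale, given ± SE from limma. "Called" means an adjusted p under 0.05 by limma with Benjamini-Hochberg adjustment over the 18458 genes.

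Over all probe sets the median level was 4.50 to 4.51 on each array numbered 1 or 2, while spleen 3 had 4.73 and tumor 3 had 4.76, and many of the levels below are highest on the array numbered 3 of their group. No label ties a sample to a mouse of its own, so the spread behind every p-value here may be technical. Of the genes behind the sort, Itgam (CD11b), at 10.04 ± 0.15 (SD, n = 3) in spleen and 9.19 ± 0.22 in tumor, lay above the 75th percentile on 6 of 6 arrays, but so did Itgax, the gene of the CD11c that the sort selected against, at 11.16 ± 0.12 and 10.31 ± 0.17. Ly6c2 rose by 1.48 ± 0.31 (adjusted p = 0.0186, and up to 0.0701 without spleen 1 or spleen 2) and Ccr2, a chemokine receptor of classical monocytes, fell by 0.93 ± 0.15 (adjusted p = 0.00516). Itgam (-0.85 ± 0.17, limma adjusted p = 0.015) and Itgax (-0.85 ± 0.16, adjusted p = 0.00987) were called lower, so all 4 genes differed between the groups. With an array left out their adjusted p rose to at most 0.08 and 0.0594. Ly6c2 lay above the 75th percentile on 6 of 6 arrays. Ccr2, at 6.86 ± 0.09 (SD, n = 3) and 5.93 ± 0.15, did so on the 3 spleen arrays only. The label is therefore kept only as a name for the sorted cells, with the levels of Itgax and of Ccr2 in tumor against it. Among 57 tested markers of 12 other cell types 3 rose and 2 fell (7 and 7 with the replicate number as a block). The count without the block sits beside 5.73% of all tested genes called higher and 4.85% called lower, so it does not set the markers apart. With the block 29.0% of all tested genes were called. Without it the risers were Kdr (2.88 ± 0.23), Klrk1 (1.73 ± 0.23) and Zbtb46 (0.89 ± 0.17, a call lost without spleen 1, spleen 2 or tumor 2). Ppbp (-2.0 ± 0.20) and Cd3g (-1.36 ± 0.18) fell, and these last 2 were chosen after their values were seen.

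The 7 receptor genes are given in groups by ligand, which were drawn with the results known. Outside the 7, the ADP receptor gene P2ry1 (-0.04 ± 0.15) and the UTP receptor gene P2ry4 (-0.14 ± 0.15) were not called. The 3 receptor genes for ADP and UDP-sugars were higher on the tumor arrays, P2ry13 by 3.10 ± 0.16 (8.55-fold), P2ry14 by 1.63 ± 0.16 (3.10-fold) and P2ry12 by 1.32 ± 0.16 (2.49-fold). Of the 4 receptor genes for ATP, UTP and UDP, 3 were lower, P2ry6 by a difference of -1.48 ± 0.15, P2ry2 by -1.04 ± 0.16 and P2rx7 by -1.0 ± 0.18, while P2rx4 stood at -0.39 ± 0.18 and was not called. The ectoenzyme gene Nt5e rose by 0.78 ± 0.18, and Entpd1 stood at -0.40 ± 0.16 and was not called. In all, 4 of the 9 genes were called higher and 3 lower, where 5.73% of all tested genes were called higher and 4.85% lower (10.6% in either direction, 1953 genes). The count over all genes was 1149, 1032 and 1004 without spleen 1, spleen 2 and tumor 1.

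**Figure D1:**
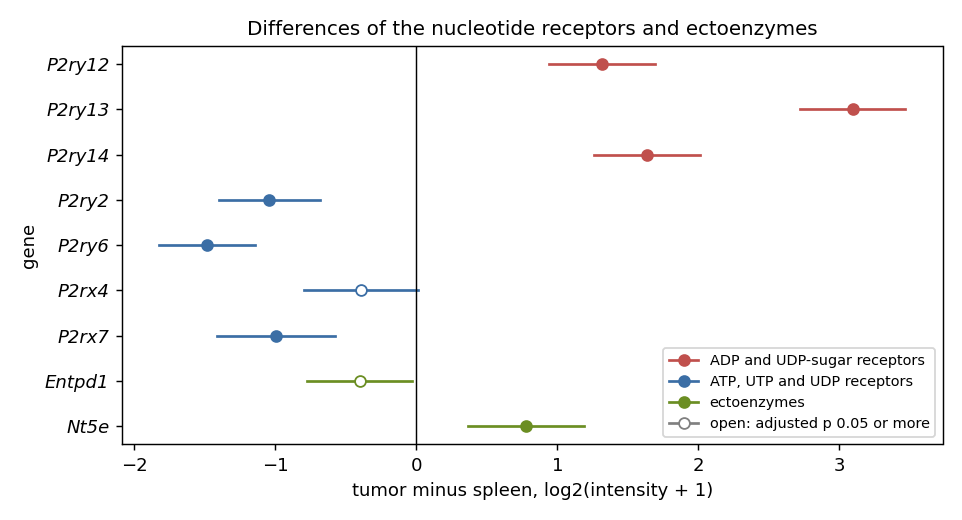
Difference, tumor minus spleen on the log2(intensity + 1) scale, of the 9 genes, as points with limma's 95% confidence interval (3 arrays per group). Red marks the ADP and UDP-sugar receptors, blue the ATP, UTP and UDP receptors and green the ectoenzymes. Filled points were called. The red intervals lie to the right of 0, with P2ry13 at 3.10, and the blue points lie to the left of it, with P2rx4 open at -0.39.

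The ADP and UDP-sugar receptor genes are also neighbours on mouse chromosome 3, and what the reference holds just before their start sites is shown here because the 3 genes moved together. The sequences are the 250 bases before the start site in RefSeq's GRCm38.p6 table, all on the minus strand and written 5′ to 3′. They are P2ry12 at chr3:59262986-59263235, P2ry13 at chr3:59210883-59211132 and, for P2ry14, the start site farthest upstream of the 4 in the table, at chr3:59153493-59153742.
P2ry12: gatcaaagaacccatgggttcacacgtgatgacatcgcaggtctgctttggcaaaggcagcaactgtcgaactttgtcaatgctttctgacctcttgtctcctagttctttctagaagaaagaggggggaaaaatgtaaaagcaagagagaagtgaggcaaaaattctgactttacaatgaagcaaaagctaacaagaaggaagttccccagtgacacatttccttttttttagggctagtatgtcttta
P2ry13: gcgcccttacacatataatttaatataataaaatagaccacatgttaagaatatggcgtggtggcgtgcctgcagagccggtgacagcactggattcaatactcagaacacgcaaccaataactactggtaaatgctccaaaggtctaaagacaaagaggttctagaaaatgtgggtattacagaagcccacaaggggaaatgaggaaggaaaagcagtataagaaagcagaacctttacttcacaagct
P2ry14: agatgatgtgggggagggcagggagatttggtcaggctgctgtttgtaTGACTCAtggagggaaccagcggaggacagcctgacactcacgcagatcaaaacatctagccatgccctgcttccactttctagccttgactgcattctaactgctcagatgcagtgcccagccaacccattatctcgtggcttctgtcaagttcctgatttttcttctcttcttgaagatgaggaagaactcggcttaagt
Capitals mark a match to the letters TGANTCA, the AP-1 element, of which the P2ry14 window holds 1, its near edge 196 bases before the start. On either strand, 6.75% of 32851 such windows in the table hold that motif. The core of the interferon-stimulated response element (GAAA, any 2 bases, GAAA, in 2.98% of windows) and the letters TTCNNNGAA (core of the interferon gamma-activated site, 7.02%), GAGGAAGT (an ETS element of the PU.1 type, 2.44%) and GGGNNTTCC (a kappaB type, 4.98%) were not in these 3 windows, which says only that these letters are absent there. Of the other 3 start sites of P2ry14 in the table, 1 holds a match to TGANTCA, 138 bases before its start, and another 1 holds a match to GGGNNTTCC, 27 bases before its start. The motifs were chosen after the expression values were known.

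P2ry13, which encodes an ADP receptor of myeloid cells, had levels of 6.49, 6.63 and 6.85 on spleen arrays 1 to 3 and 9.69, 9.63 and 9.94 on tumor arrays 1 to 3. The lowest tumor array lay far above the highest spleen array. The difference was called at adjusted p = 1.0e-05 and was the 91st largest rise among the 18458 genes tested. It was alike in all 3 same-numbered pairs, at 3.19, 3.0 and 3.09. RNA of many cells was measured together. A change in how many cells carry a transcript and a change in its amount per cell cannot be told apart, here and below.

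P2ry14, which encodes the UDP-sugar receptor, had levels of 9.28, 9.25 and 9.63 on the spleen arrays and 11.01, 10.90 and 11.16 on the tumor arrays. The groups did not overlap, and the array numbered 3 was the highest of each. The difference of 1.63 had a 95% confidence interval of 1.26 to 2.01 (limma adjusted p = 4.2e-04). P2ry12, the gene of the ADP receptor that antiplatelet drugs block and that marks microglia in the brain, was dimmer, with levels of 4.74, 4.95 and 4.94 in spleen and 6.19, 5.98 and 6.42 in tumor. It did not reach the 75th percentile of its array on any of the 6 arrays, yet the groups did not overlap either (limma adjusted p = 0.00141, interval of the difference 0.94 to 1.69).

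P2ry12 is a platelet gene, so the platelet markers are given beside it. Of 5 tested markers of platelets and megakaryocytes 0 rose (limma, 0 also at an unadjusted p under 0.05) and 1, Ppbp, fell. Their summed intensity was 639 to 875 on the spleen arrays and 291 to 325 on the tumor arrays, with Ppbp alone at 455 to 697 and 125 to 168, and Pf4 (5.28 ± 0.05 and 4.98 ± 0.19, SD, n = 3) and Itga2b (5.46 ± 0.08 and 5.58 ± 0.04) stayed below the 75th percentile on 6 of 6 arrays. The part of platelet RNA in the P2ry12 levels was not tested. Of 4 tested markers of microglia and resident macrophages 0 were called by limma (1 was higher at an unadjusted p under 0.05, and 2 were called higher with the replicate block), and their summed intensity overlapped between the groups, at 112 to 128 in spleen and 122 to 142 in tumor.

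**Figure D2:**
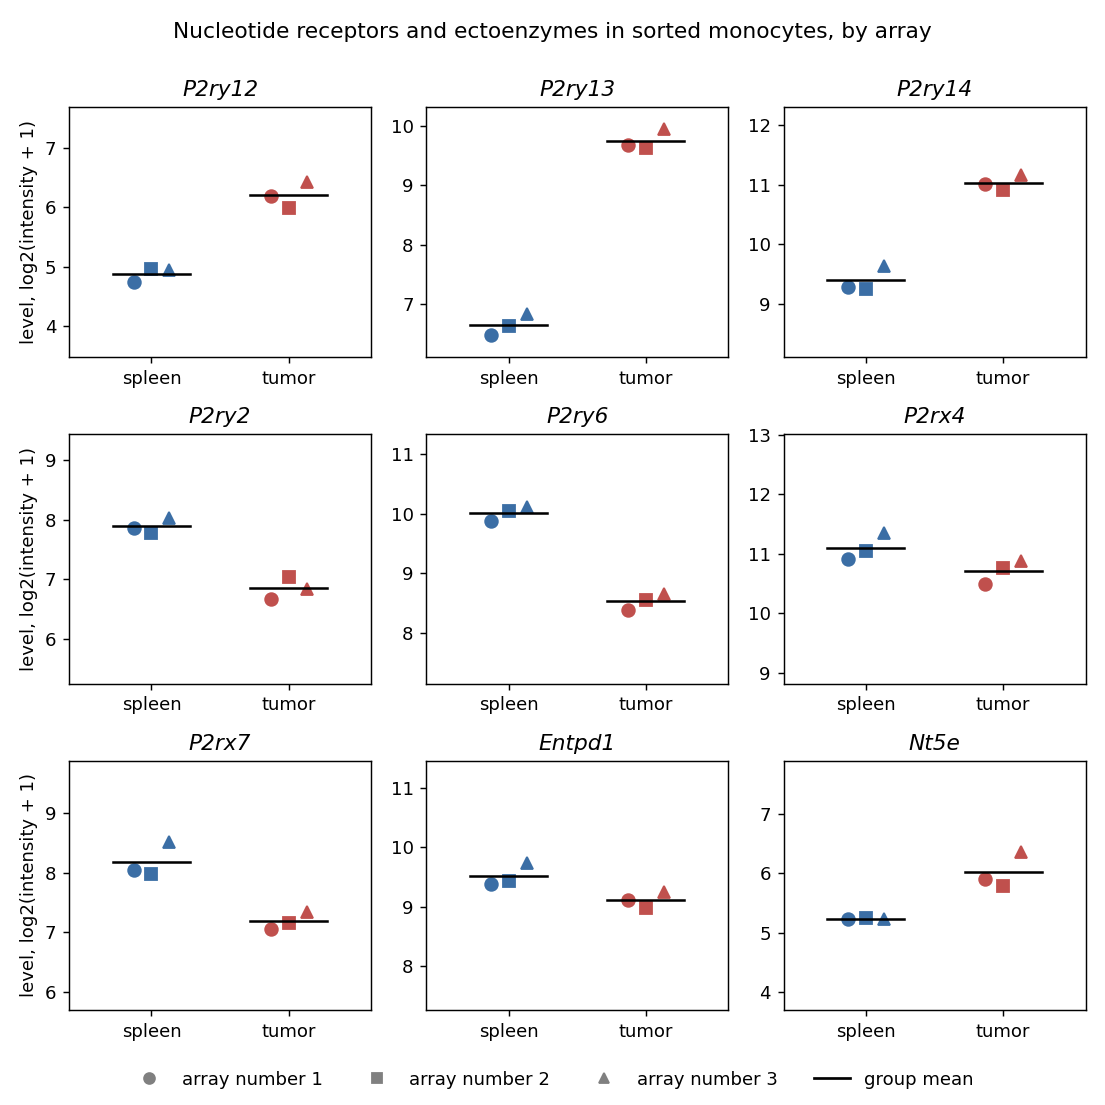
Level, log2(intensity + 1), of each of the 9 genes on the 3 spleen arrays (blue) and the 3 tumor arrays (red). Symbols give the array number and black lines the group means. Each panel spans the same range of log2 units, and in every panel the 3 tumor arrays lie on 1 side of the 3 spleen arrays, narrowly for P2rx4 and Entpd1.

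P2ry6 and P2ry2, whose receptors bind UDP and UTP, fell. P2ry6, which encodes the UDP receptor that in macrophages and microglia takes part in phagocytosis, had levels of 9.88, 10.04 and 10.10 on spleen arrays 1 to 3 and 8.38, 8.55 and 8.65 on tumor arrays 1 to 3. The gap between the groups was larger than the spread within either, and the fall of 1.48 (2.79-fold, limma adjusted p = 4.2e-04) was the 60th largest among the genes tested. In the same-numbered pairs the difference was -1.50, -1.49 and -1.45. P2ry2, whose receptor binds ATP and UTP and is known as a sensor of the find-me signal from dying cells, had levels of 7.87, 7.78 and 8.02 in spleen and 6.67, 7.03 and 6.84 in tumor. These groups did not overlap, and the difference of -1.04 had an interval of -1.40 to -0.68 (limma adjusted p = 0.00395). Its size varied more between pairs than that of P2ry6, from -0.75 to -1.20.

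Of the ATP-gated channels, P2rx7 fell and P2rx4 did not pass the test. P2rx7, whose channel opens at high ATP and starts the NLRP3 inflammasome, had levels of 8.05, 7.99 and 8.51 in spleen and 7.06, 7.15 and 7.35 in tumor. The groups did not overlap, with spleen 3 standing above the other spleen arrays, and the fall was 2.00-fold (limma adjusted p = 0.0101), though without tumor 1 the call was lost (adjusted p = 0.0594). P2rx4, whose channel is found largely on lysosomes in macrophages, had levels of 10.91, 11.04 and 11.34 in spleen and 10.49, 10.75 and 10.88 in tumor. Here the highest tumor array lay just under the lowest spleen array, and the difference of -0.39 had an interval of -0.80 to 0.01 (limma adjusted p = 0.246). With the replicate number as a block P2rx4 was called (adjusted p = 0.0168), as 29.0% of all tested genes were.

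Taken by ligand, the ADP and UDP-sugar receptors had a median difference of 1.63 (1.69 among arrays numbered 1 and 2, 1.52 in number 3), and the ATP, UTP and UDP receptors had a median of -1.02 (-0.94 and -1.17), beside a median of -0.05 over all tested genes. These are descriptions of 3 and 4 genes chosen with the results known, and no test was made on either group. The pairs of arrays numbered 1, 2 and 3 all gave the same sign for each of the 7 receptor genes. Groups that do not overlap must give this for any pairing, so it adds nothing to the lack of overlap. All 9 genes had groups that did not overlap, where 25.4% of all tested genes did.

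The 2 enzymes act in sequence. Entpd1, the gene of CD39, which takes ATP and ADP down to AMP, had levels of 9.38, 9.42 and 9.74 in spleen and 9.11, 8.97 and 9.25 in tumor. The groups lay close together without overlap, and the difference of -0.40 missed the threshold (interval -0.78 to -0.03, limma adjusted p = 0.19). With the replicate number as a block it was called (adjusted p = 0.0175). Nt5e, the gene of CD73, which turns AMP into adenosine, had levels of 5.24, 5.25 and 5.23 in spleen and 5.91, 5.78 and 6.36 in tumor, and like P2ry12 it was under the 75th percentile on 6 of 6 arrays. The tumor arrays were all higher, tumor 3 most of all, with a difference of 1.13 in the pair numbered 3 against 0.60 among numbers 1 and 2. The call (1.71-fold, adjusted p = 0.0272) was lost without any 1 of the spleen arrays or without tumor 1 (adjusted p up to 0.1).

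The positions of the receptor genes were not used to choose them, and the 7 fall in 3 runs of the RefSeq gene order, on chromosomes 3, 5 and 7. Of the genes in the window around P2ry12, P2ry13 and P2ry14, which reaches 3 genes to either side, 3 that are not among the 9 were tested, and 2 of them rose. Gpr171, the gene of a related G protein-coupled receptor, rose by 1.25 ± 0.22 (limma adjusted p = 0.00879), from 7.49 ± 0.36 (SD, n = 3) to 8.74 ± 0.27. It has 2 probe sets, whose differences were 1.25 and 0.36, the latter from a dim probe set, and with the mean of both the difference was 0.80 and the call was lost (adjusted p = 0.121). F630111L10Rik, a long noncoding RNA gene that overlaps P2ry14, rose by 1.89 ± 0.20 (adjusted p = 5.0e-04), from 6.47 ± 0.27 to 8.36 ± 0.24. Whether its probes read the P2ry14 transcript was not tested. Med12l, a long gene whose body spans all 3 receptor genes, stood at 0.47 ± 0.20 (adjusted p = 0.212, and 0.0085 with the replicate block). The 3 receptor genes defined this window, so its count rests on those 3 neighbours alone, beside the 5.73% of all tested genes that were called higher.

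The runs of the genes that were lower looked otherwise. Beside P2rx7 and P2rx4, which are neighbours on chromosome 5, 0 of 2 tested genes were called by limma (1 at an unadjusted p under 0.05). Camkk2, a kinase gene that overlaps P2rx4, stood at 0.41 ± 0.17 (adjusted p = 0.187, and 0.0141 with the replicate block), opposite in sign to P2rx4, and Anapc5, of the anaphase-promoting complex, at -0.11 ± 0.20. Beside P2ry6 and P2ry2 on chromosome 7, 0 of 3 were called by limma (1 at an unadjusted p under 0.05). Relt, of the TNF receptor family, stood at -0.62 ± 0.19 (adjusted p = 0.081, and 0.00506 with the replicate block), Arhgef17 at -0.23 ± 0.24 and Fchsd2 at 0.45 ± 0.22 (0.307, and 0.012 with the block). The falls called in these windows were thus those of the receptor genes. Whether neighbours move together more in 1 run than in another was not tested.

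**Figure D3:**
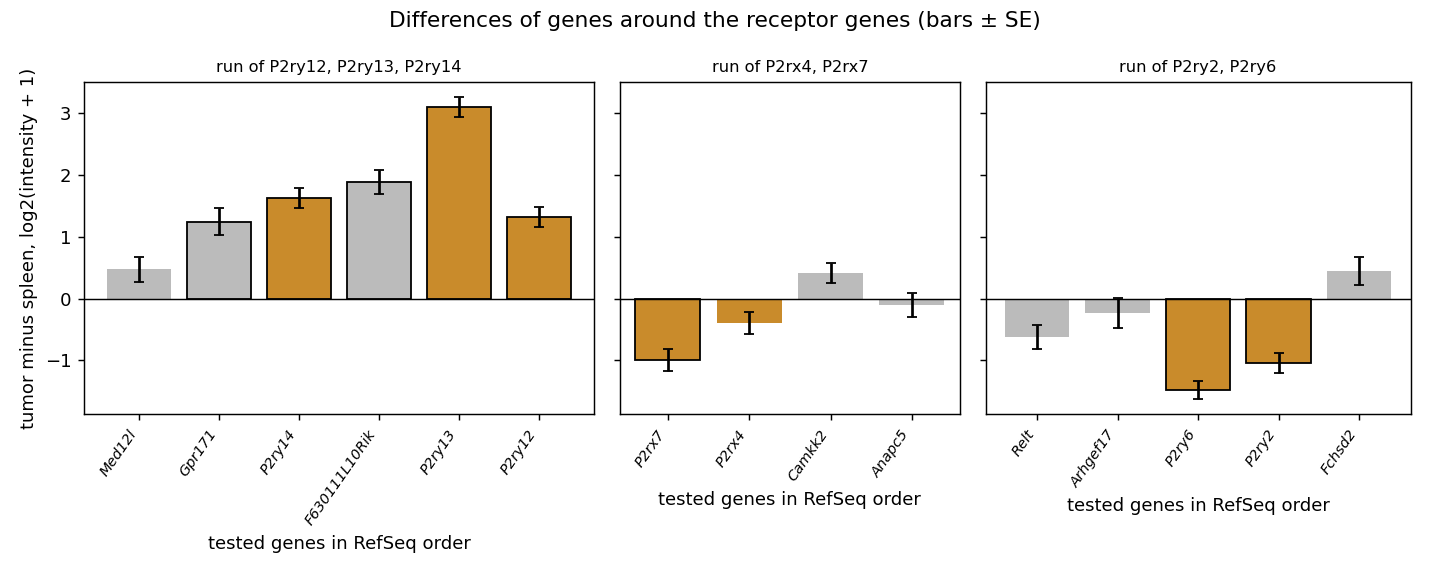
Difference, tumor minus spleen on the log2(intensity + 1) scale, of the tested genes in 3 windows of the RefSeq gene order, as bars ± SE (3 arrays per group). Orange bars are the receptor genes, grey bars their neighbours, and a black outline marks a call. In the left window 5 of 6 bars are outlined, 3 of them those of the receptor genes that define it, and all lie above 0, up to 3.10 for P2ry13. In the middle and right windows the outlined bars are those of P2rx7, P2ry6 and P2ry2, below 0.

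A further list of 36 genes was drawn around the release, sensing, breakdown and transport of extracellular nucleotides and adenosine. It holds some genes by name, family or binding partner only, among them P2ry10, Entpd5 and Dpp4, which are called below. Of the 36, 29 were tested, and 2 rose and 3 fell (limma, adjusted p under 0.05), a share of calls to be read beside the 10.6% over all genes. Their median difference was -0.09. With the replicate number as a block 5 rose and 6 fell, where 29.0% of all tested genes were called. Without spleen 1, spleen 2 and tumor 1 the calls were 3, 3 and 2. Over all genes the counts were then 1149 of 18277, 1032 of 18305 and 1004 of 18281. This list was written with earlier results of these data known.

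Among the other receptors, P2ry10 rose. Its protein carries a P2Y name but is a receptor of lysophosphatidylserine. Its levels were 8.87, 8.84 and 8.98 on the spleen arrays and 9.98, 9.77 and 10.23 on the tumor arrays, a clear separation (difference 1.09 ± 0.16, limma adjusted p = 0.0035). Its paralogue P2ry10b stood at 0.43 ± 0.37 with overlapping groups (adjusted p = 0.648, and 0.0229 with the replicate block), and closely related genes can share probe signal. P2ry1, which encodes the remaining ADP receptor and also lies on chromosome 3 but outside the window, stood at -0.04 ± 0.15 (5.87 ± 0.14 in spleen and 5.83 ± 0.07 in tumor, SD, n = 3). P2ry4, the gene of another UTP receptor, stood at -0.14 ± 0.15 and was not called (limma adjusted p = 0.742), at 4.18 ± 0.12 in spleen and 4.05 ± 0.12 in tumor. P2ry1 and P2ry4 thus did not move with the receptor genes grouped above under the same ligands. Both were named after their values were seen. The ATP-gated channel gene P2rx5 stood at -0.22 ± 0.25.

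Genes of nucleotide release and adenosine uptake fell in part. Slc17a9, the vesicular transporter that loads ATP for secretion, had levels of 6.11, 6.20 and 6.48 in spleen and 5.42, 5.34 and 5.51 in tumor (difference -0.84 ± 0.16, limma adjusted p = 0.0105, and 0.0558 without tumor 1). Every tumor array lay below every spleen array. Slc29a1, the nucleoside transporter ENT1 that takes adenosine into the cell, had levels of 8.40, 8.44 and 8.39 in spleen and 7.41, 7.55 and 7.49 in tumor. Its fall of 0.92 ± 0.13 (adjusted p = 0.00319) rests on the brighter of 2 probe sets, the other of which stood at -0.13, and with the mean of both the difference was -0.53 (adjusted p = 0.187). Slc29a3, a nucleoside transporter of lysosomes, stood at 0.56 ± 0.21 (adjusted p = 0.152, and 0.0034 with the replicate block), and the ATP release channel gene Panx1 at 0.11 ± 0.19.

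Among other enzymes, Entpd5, an ENTPD family member of the endoplasmic reticulum, fell by 0.71 ± 0.14 (limma adjusted p = 0.0144), with a call lost without spleen 1, spleen 2, tumor 1 or tumor 2 (adjusted p up to 0.0909). Dpp4, the peptidase CD26 that binds adenosine deaminase, rose by 0.87 ± 0.20 (adjusted p = 0.0293), a call lost without spleen 1, spleen 2, tumor 1 or tumor 3 (adjusted p up to 0.12). Its levels were 8.29, 8.30 and 8.70 in spleen and 9.34, 8.97 and 9.59 in tumor. Bst1, an ectoenzyme that acts on NAD, stood at 0.64 ± 0.17 and just missed the threshold (adjusted p = 0.051, and 0.0035 with the replicate block). Acpp, a phosphatase that can turn AMP into adenosine, stood at -0.76 ± 0.32 with overlapping groups (adjusted p = 0.208, and 0.00102 with the block). Entpd7 (-0.10 ± 0.23) and Adk, the adenosine kinase (-0.16 ± 0.22), were above the 75th percentile on 6 of 6 arrays and were not called.

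**Figure D4:**
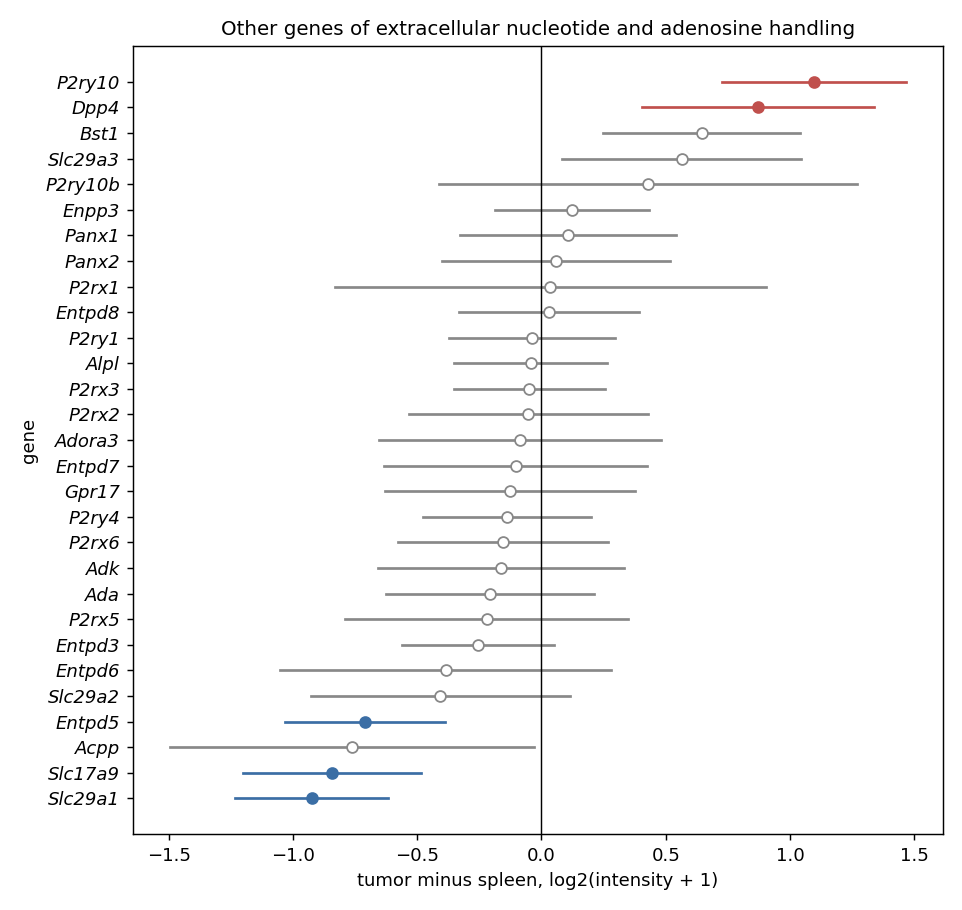
Difference, tumor minus spleen on the log2(intensity + 1) scale, of the 29 other tested genes listed around extracellular nucleotide and adenosine handling. They are ordered by size, with limma's 95% confidence interval (3 arrays per group). Red and blue filled points were called higher and lower, and open grey points were not called. The called genes are P2ry10 and Dpp4 on the right and Entpd5, Slc17a9 and Slc29a1 on the left, all between -0.92 and 1.09, a narrower span than that of the receptors P2ry13 and P2ry6.

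Markers of other cells that moved with the group are given with the results they stand beside. The summed intensity of the NK cell list was 179 to 256 in spleen and 527 to 819 in tumor, with Klrk1 alone at 134 to 201 and 481 to 762. Of its 4 tested members Klrk1 was called, while Ncr1 stood at -0.07, Eomes at 0.17 and Gzma at 0.29. The summed intensity of the endothelial list was 221 to 272 and 474 to 692, with Kdr alone at 42 to 63 and 306 to 499. Kdr was called, while Cdh5 stood at -0.07, Tek at -0.11, Pecam1 at -0.20 and Egfl7 at 0.08. The summed intensity of the T cell list was 207 to 249 and 128 to 185, with Cd3g called. That of the neutrophil list was 848 to 919 and 691 to 739, with 0 of 7 called by limma (0 also at an unadjusted p under 0.05, and 1 lower with the replicate block). In the dendritic cell list, whose cells can carry P2ry14 and Itgax, 1 of 5 tested members rose. The summed intensity overlapped, at 837 to 982 and 801 to 879. Of the 5 genes, 3 lay above the 75th percentile on 6 of 6 arrays in both groups. They were Cd209a (9.24 in spleen and 8.83 in tumor), Flt3 (6.89 and 6.99) and Zbtb46 (6.82 and 7.71), while Xcr1 and Siglech lay below it on 6 of 6. Cd209a, at -0.41 ± 0.19, was not called (limma adjusted p = 0.278, and 0.0439 with the replicate block). The part of other cell types in the differences of the receptor genes was not tested.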

How the data were processed

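Total RNA of 6 samples of sorted mouse monocytes (3 from spleen, 3 from tumor) was measured on 6 arrays. The authors deposited 1 table of intensity per probe set, made with RMA per the submitters' processing notes, with no version or setting given; the values are linear, and array medians differ by number. Of 41345 probe sets, 23521 carry 1 gene symbol, 1814 several, and 16010 have none listed. Where a gene had several, the probe set with the highest mean over 6 arrays stood for it. Genes above the 25th percentile of their array on at least 3 arrays were tested on log2(intensity + 1), a scale that understates changes of dim genes. The two-sided test was made in limma 3.58.1 (R 4.3.3, functions lmFit and eBayes) with group alone in the model. Benjamini-Hochberg adjustment ran across the 18458 genes. The procedure was run on simulated data with independent noise on each array. That simulation lacked the deviation shared by the arrays numbered 3, so it does not show error control under it. An exact test of 3 against 3 arrays could not go below p = 0.1. The number of arrays limits the precision.

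Across genes, what an array deviated from its group mean correlated at 0.36, 0.44 and 0.71 between arrays of equal number (1, 2 and 3), but also at 0.47 for spleen 1 with tumor 2, so the numbers set number 3 apart more than they pair 1 and 2. No label explains the numbers. Blocked values stand beside the named genes whose call they change.

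Genes named were the 9 matched and those of the 36 other pathway genes that were called or above the 75th percentile on 6 arrays. Also named were the neighbours in RefSeq order (GRCm38.p6), the sort genes and the markers with the largest differences. P2ry1, P2ry4, Ppbp, Cd3g and the uncalled markers given beside summed lists were added after their values were seen. Acpp was matched through its gene identifier. Start-site sequences come from RefSeq's GRCm38.p6 table, which held 8 of the 10 genes. Members, lists and tests were chosen with earlier results of these data known.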

Additional observations from a re-analysis of the deposited data

How the results depend on the processing

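With 18 other settings, P2ry12, P2ry13, P2ry14, P2ry2 and P2ry6 kept their direction and their call, with differences between 0.99 and 1.42, 2.92 and 3.19, 1.56 and 1.76, -1.14 and -0.94, and -1.60 and -1.40. Between 5 and 9 of the 9 genes were called in every setting; Entpd1 was gained with quantile normalization, median centring, array weights and the replicate block, and P2rx4 with these except median centring. The replicate block changed no call among the 9 beside those of P2rx4 and Entpd1, and raised the count over all genes to 5348 and that of the other pathway genes to 11. The all-gene count was 3508 with quantile normalization, 3290 with median centring, 3182 with cyclic loess, 7098 with array weights, 2946 with arrays numbered 1 and 2 only, 961 at an adjusted p under 0.01, and 1004 to 1931 with an array left out. The count of other pathway genes was 8 with quantile normalization, 13 with array weights, 2 at an adjusted p under 0.01, and 2 to 6 with an array left out. Signs turned with an array left out for genes near 0 that were not called, whose differences then ran from -0.40 to 0.012 (P2rx5), -0.30 to 0.081 (Entpd7), -0.34 to 0.026 (Adk), -0.23 to 0.049 (Anapc5) and -0.40 to 0.0033 (Arhgef17); they turned without spleen 3 for P2rx5, Entpd7, Anapc5 and Arhgef17, without tumor 2 for Entpd7 and Adk, and without tumor 1 for Anapc5. The cause was not tested. Dim signal limits P2ry12 and Nt5e, whose folds are understated on this scale.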
